A study of Mus musculus with 24 samples.

Results

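The genes described here are 9 regulators of the myeloid lineage in the hippocampal CA1 subfield of the mouse. They are 6 transcription factors (Spi1, Irf8, Runx1, Cebpa, Cebpb and Sall1), the growth factors Csf1 and Il34, and the receptor chain Csf2rb. They were listed by gene symbol and are 9 of the 18647 genes in the count table. Earlier results of these data were known when they were chosen, so their share of calls is not that of a blind choice. All 9 passed the filter on low counts that left 18153 genes for testing.

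RNA of microdissected whole CA1 was sequenced from adult C57Bl/6N mice after status epilepticus (SE), a prolonged seizure that can be followed by chronic epilepsy. SE mice received scopolamine methyl nitrate, which blocks muscarinic receptors outside the brain, and then 335 mg/kg pilocarpine hydrochloride, a muscarinic agonist, and were collected 6, 12, 24, 36 or 72 h after SE. Control (Ctr) mice, collected at 12, 36 or 72 h, got saline where SE mice got pilocarpine and shared the other injections, among them the diazepam that ended the seizure in SE mice. Mice in which pilocarpine brought on no SE were left out of the SE groups. Each of the 8 groups held 3 libraries. SE at 12, 36 and 72 h was compared with Ctr of the same time, and SE at 6 and 24 h, which have no Ctr of their own time, with the mean of the 3 Ctr groups, so these comparisons share Ctr libraries. The labels do not say whether the 3 libraries of a group came from 3 animals, so the p-values measure the spread between these libraries.

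Microglia are the resident macrophages of the brain. Their identity rests on the ETS factor PU.1, encoded by Spi1, which acts with IRF8 and RUNX1, and SALL1 keeps them in the state of the unperturbed brain. C/EBP alpha and C/EBP beta belong to another family of factors, and the latter drives acute inflammatory genes in many cell types. Microglia live on signals through the CSF1 receptor, which has CSF1 and IL-34 as ligands, the latter made mainly by neurons. CSF2RB is the common beta chain through which GM-CSF, IL-3 and IL-5 signal. Because whole CA1 was sequenced, a change in the number of cells of a type and a change in RNA per cell cannot be told apart.

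Total counts ran from 2663936 to 30133731 per library, with a median of 13521590, and the Ctr 72 h libraries were the shallowest at 2663936 to 11680209. Levels are CPM after TMM scaling, and levels of different genes were compared only per kb of exon. Ctr 72 h replicate 2 stood apart, with a second principal component of -136 against 8.54 to 22.8 in the other Ctr libraries and 1517 CPM of summed sensory ganglion markers. That sum also reached 282 to 814 CPM in SE 6 h replicate 3, SE 12 h replicate 1, SE 36 h replicate 3 and SE 72 h replicates 1 and 2, and stayed at 2.30 to 59.6 CPM elsewhere. The CA1 pyramidal markers summed to 184 to 851 CPM over the libraries and the dentate granule markers to 3.24 to 209 CPM. The markers of neurons and of microglia and macrophages that were in the table had counts in every library, and of the homeostatic microglia genes Slc2a5 had no count in 1 library.

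In Ctr the 9 genes spanned a wide range of levels. Per kb of exon, Il34 was the highest at 11.9 ± 1.94 CPM (SD, n = 9), followed by Csf1 at 4.77 ± 0.479, Cebpa at 4.05 ± 1.54, Sall1 at 3.86 ± 1.03, Cebpb at 1.68 ± 0.905, Spi1 at 0.892 ± 0.312, Irf8 at 0.422 ± 0.139, Runx1 at 0.235 ± 0.260 and Csf2rb at 0.140 ± 0.0731 CPM. Il34 thus exceeded Csf1 per kb in Ctr, and in each of the 15 SE libraries that order was the opposite.

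A gene was called a differentially expressed gene (DEG) when its adjusted p was 0.05 or less and its log2FC was 0.66 or more in either direction for SE against Ctr and for differences between time points in the SE effect, or 1 or more between SE time points. Each log2FC and its p came from the quasi-likelihood test of edgeR, and p was adjusted by Benjamini-Hochberg over the 18153 genes. At 6 h after SE, 7 of the 9 genes were higher and 1 was lower, where 15.8% of all genes tested were called higher and 6.21% lower. At 12 h the counts were 7 higher and 1 lower, against 13.9% and 11.4% of all genes. At 24 h they were 8 and 1, against 14.9% and 9.21%. At 36 h they were 7 and 1, against 12.7% and 8.91%. At 72 h 8 genes were higher and none was lower, against 15.2% and 4.20%. The median log2FC of the 9 genes was 1.51, 1.57, 2.03, 1.71 and 2.72 in order of time, and that of all genes tested lay between 0.003 and 0.097. Il34 was the member that fell at 4 of the 5 times, and Sall1 was not called before 24 h. Without Ctr 72 h replicate 2, 7 members were called at 72 h and 8 at each of the other times. The labels number the libraries in 3 ranges, and with that range as a factor in place of the factor for unwanted variation 6, 8, 7, 6 and 6 members were called in order of time. In that fit 2477, 3508, 2627, 3358 and 1595 of all genes were called in either direction. The fit used above called 3994, 4578, 4377, 3924 and 3527. The member calls lost with the range were those of Spi1 and Runx1 at 6 h, Sall1 and Cebpb at 24 h, Cebpa and Cebpb at 36 h, and Runx1 and Cebpb at 72 h.

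**Figure D1:**
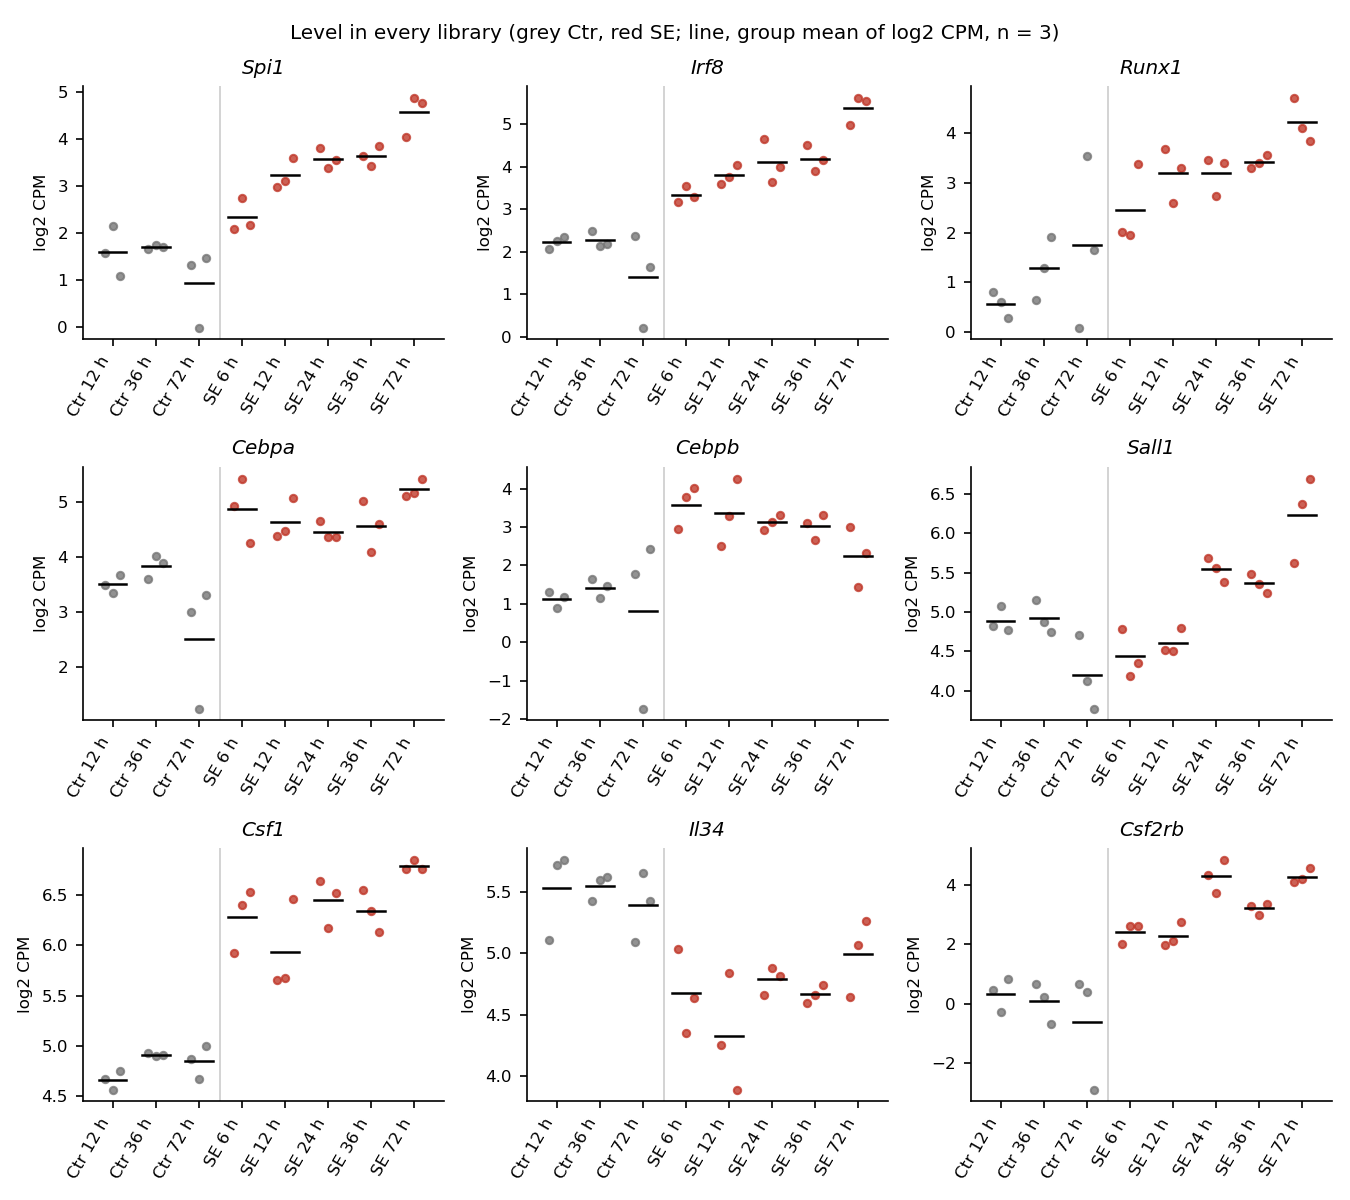
Level of each of the 9 genes in every library on the log2 CPM scale (prior count 2), with Ctr groups in grey, SE groups in red and a line at the group mean (n = 3). Spi1, Irf8, Csf1 and Csf2rb lie above every Ctr library from 12 h on, Il34 lies below its Ctr up to 36 h, and Ctr 72 h replicate 2 is the lowest library for Spi1, Irf8, Cebpa and Cebpb but the highest Ctr library for Runx1.

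Sequences upstream of the start site are shown for 4 of the genes that were higher at 6 h, because these windows hold letters of motifs bound by known regulators of such genes. The RefSeq table (GRCm38.p6) held windows for 6 of the 9 genes and none for Spi1, Il34 and Csf2rb. Each line gives the 250 bases before a start site, 5′ to 3′ on the strand of the gene, with matches in capitals. The motifs were searched on both strands in these 250 bases, and the share of all 32851 promoter windows that held each one there is given below. The windows lie at chr3:107760470-107760719 on the minus strand (Csf1), chr8:120736108-120736357 on the plus strand (Irf8), chr16:92697330-92697579 on the minus strand (Runx1) and chr2:167688665-167688914 on the plus strand (Cebpb).
Csf1: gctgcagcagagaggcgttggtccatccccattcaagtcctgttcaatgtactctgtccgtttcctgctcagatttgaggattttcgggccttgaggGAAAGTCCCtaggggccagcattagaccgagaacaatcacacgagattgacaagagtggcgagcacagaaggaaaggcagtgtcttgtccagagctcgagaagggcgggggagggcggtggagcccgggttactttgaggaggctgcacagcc
Irf8: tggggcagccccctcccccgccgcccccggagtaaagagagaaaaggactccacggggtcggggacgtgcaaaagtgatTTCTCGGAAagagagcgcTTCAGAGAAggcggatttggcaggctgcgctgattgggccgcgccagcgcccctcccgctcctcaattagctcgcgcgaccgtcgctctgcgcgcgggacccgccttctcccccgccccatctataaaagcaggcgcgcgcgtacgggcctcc
Runx1: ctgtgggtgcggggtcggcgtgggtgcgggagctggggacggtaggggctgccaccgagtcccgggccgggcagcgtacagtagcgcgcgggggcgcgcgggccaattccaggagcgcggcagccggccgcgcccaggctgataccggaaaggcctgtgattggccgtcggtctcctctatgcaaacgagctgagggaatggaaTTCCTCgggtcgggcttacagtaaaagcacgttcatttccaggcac
Cebpb: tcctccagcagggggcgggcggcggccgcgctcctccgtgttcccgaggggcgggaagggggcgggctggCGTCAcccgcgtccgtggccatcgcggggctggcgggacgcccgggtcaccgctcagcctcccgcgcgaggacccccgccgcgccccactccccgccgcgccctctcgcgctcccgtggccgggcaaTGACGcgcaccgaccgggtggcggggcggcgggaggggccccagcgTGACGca

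The capitals in Csf1 mark the kappa B core GGGANTTNC, read on the other strand at 153 bases before the start site, a motif that 3.54% of all windows held. Those in Irf8 mark 2 matches of the STAT site TTCNNNGAA, held by 7.02% of windows. In Runx1 the PU.1 core GAGGAA stood on the other strand 46 bases before the start, and 23.3% of windows held it. Cebpb had 3 matches of the CRE core TGACG, held by 17.8% of windows. The STAT and CRE motifs were added to the search after these windows had been read. None of the 10 windows of the 6 genes held the RUNX core TGTGGT, the C/EBP core TTGCNNAA, the AP-1 site TGANTCA or the interferon response repeat GAAANNGAA, which 9.56% (C/EBP), 6.75% (AP-1) and 7.13% (interferon) of all windows and 4614 windows (RUNX) held. A match describes letters in a window and no binding was measured.

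Spi1 and Irf8 were higher than Ctr from 6 h on and had their highest levels at 72 h. Spi1 (chr2:90912562-90946101, plus strand, GRCm39) measured 4.08, 6.56 and 4.33 CPM in the 3 SE libraries at 6 h, 7.65, 8.45 and 11.9 at 12 h, 13.7, 10.2 and 11.6 at 24 h, 12.2, 10.6 and 14.3 at 36 h, and 16.2, 29.2 and 27.1 at 72 h. The 9 Ctr libraries ran from 0.853 to 4.29 CPM with a median of 2.84. From 12 h on every SE library was above every Ctr library, while at 6 h the lowest SE library lay below the highest Ctr library. The log2FC of Spi1 in order of time was 0.97 ± 0.22 (s.e., adjusted p = 0.00157), 1.63 ± 0.26 (8.02e-05), 2.23 ± 0.20 (3.42e-08), 2.01 ± 0.26 (8.2e-06) and 3.78 ± 0.31 (3.1e-08), the last of which is 13.8-fold. In the order of group means, the SE groups at 12, 24 and 36 h overlapped one another, and the 3 Ctr groups likewise. The call of Spi1 at 6 h was lost with the range of label numbers as a factor (0.657, adjusted p = 0.111).

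Irf8 (chr8:121463096-121485659, plus strand) encodes the factor that partners PU.1 at many myeloid genes. It measured 8.87, 11.6 and 9.68 CPM at 6 h, 12.0, 13.3 and 16.3 at 12 h, 25.1, 12.5 and 15.9 at 24 h, 22.9, 14.7 and 17.7 at 36 h, and 31.7, 49.5 and 46.5 at 72 h. The Ctr libraries ran from 1.02 to 5.47 CPM with a median of 4.44, so no SE library at any time overlapped a Ctr library. The log2FC of Irf8 in order of time was 1.35 ± 0.19 (adjusted p = 1.73e-05), 1.57 ± 0.24 (3.98e-05), 2.18 ± 0.18 (1.14e-08), 1.97 ± 0.24 (3.37e-06) and 3.93 ± 0.28 (5.23e-09), or 15.2-fold. Between groups next to each other in the order of means, the breaks fell at the same places as for Spi1. The 6 h libraries of Spi1, unlike those of Irf8, overlapped the 9 Ctr libraries. No exon of Spi1 or Irf8 overlaps another annotated gene. Without Ctr 72 h replicate 2, which held the lowest Ctr levels of both genes, the 72 h values were 3.28 for Spi1 and 3.27 for Irf8, both still called.

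Sall1, the microglial identity factor, took another course. Its levels (chr8:89753863-89770823, minus strand) were 27.4, 18.1 and 20.2 CPM at 6 h, 22.7, 22.5 and 27.6 at 12 h, 51.3, 47.2 and 41.4 at 24 h, 44.7, 40.9 and 37.8 at 36 h, and 48.9, 83.1 and 103.7 at 72 h. The Ctr libraries ran from 13.5 to 35.4 CPM with a median of 27.2. The SE libraries at 6 and 12 h overlapped the Ctr libraries, and those at 24, 36 and 72 h lay above all of them. The log2FC of Sall1 in order of time was -0.25 ± 0.19 (adjusted p = 0.312) and -0.29 ± 0.22 (0.32), then 0.84 ± 0.18 (0.000705), 0.43 ± 0.22 (0.149) and 2.00 ± 0.24 (3.06e-06). The call at 24 h was lost with the range of label numbers as a factor (0.70, adjusted p = 0.0751). A long noncoding RNA on the opposite strand, Gm3134, overlaps 9.95% of the exonic bases of Sall1, and reads were counted without strand.

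Runx1, a factor of blood cell development that microglia also express, was higher than Ctr at every time. The gene (chr16:92398354-92623037, minus strand) measured 3.92, 3.72 and 10.2 CPM at 6 h, 12.6, 5.93 and 9.64 at 12 h, 10.8, 6.49 and 10.4 at 24 h, 9.71, 10.5 and 11.7 at 36 h, and 26.2, 16.98 and 14.2 at 72 h. The Ctr libraries ran from 0.928 to 11.4 CPM with a median of 1.61, and the highest, Ctr 72 h replicate 2, overlapped the SE libraries at 6 and 24 h. The log2FC of Runx1 in order of time was 1.51 ± 0.30 (adjusted p = 0.000523), 2.78 ± 0.40 (2.77e-05), 2.12 ± 0.29 (9.08e-06), 2.13 ± 0.38 (0.000243) and 2.72 ± 0.43 (8.3e-05). In its groups Runx1 was highest in SE 6 h replicate 3, SE 12 h replicate 1, SE 36 h replicate 3, SE 72 h replicate 1, Ctr 36 h replicate 3 and Ctr 72 h replicate 2, the library of each group with the largest sum of sensory ganglion markers. In SE 24 h and Ctr 12 h it was highest in replicate 1 (10.8 and 1.61 CPM), and the marker sum in replicates 3 and 2 (42.4 and 8.43 CPM). With that sum as a covariate in place of the factor for unwanted variation, the Runx1 log2FC was 1.13, 2.31, 2.15, 2.11 and 2.03 in order of time, with calls at all 5 times. The call at 6 h was lost without SE 6 h replicate 3 (0.86), and at 6 h (1.31, adjusted p = 0.0984) and 72 h (2.23, adjusted p = 0.124) with the range of label numbers as a factor.

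Cebpa, needed for myeloid differentiation, and Cebpb, induced by inflammatory signals, were both called higher than Ctr at every time. The log2FC of Cebpa was largest at 72 h and that of Cebpb at 6 h. Neither gene was called between consecutive SE time points. Cebpa (chr7:34818718-34821353, plus strand, a gene of 1 exon) measured 30.4, 42.5 and 18.98 CPM at 6 h, 20.6, 22.1 and 33.5 at 12 h, 25.1, 20.4 and 20.4 at 24 h, 32.4, 16.8 and 24.1 at 36 h, and 34.5, 35.6 and 42.9 at 72 h. Every SE library lay above the Ctr libraries, which ran from 2.22 to 16.1 CPM with a median of 11.1. The SE groups overlapped along the order of their means. The log2FC of Cebpa in order of time was 1.64 ± 0.19 (adjusted p = 1.86e-06), 1.15 ± 0.25 (0.00112), 1.19 ± 0.20 (6.85e-05), 0.78 ± 0.24 (0.0188) and 2.75 ± 0.29 (5.38e-07). The 36 h call was lost without Ctr 36 h replicate 1 or SE 36 h replicate 1 (0.55 to 0.97 over the left-out libraries) without the factor for unwanted variation (0.78, adjusted p = 0.086) and with the range of label numbers (0.80, adjusted p = 0.109).

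Cebpb (chr2:167530835-167532338, plus strand, a gene of 1 exon) measured 7.59, 13.6 and 16.1 CPM at 6 h, 5.52, 9.71 and 19.04 at 12 h, 7.43, 8.67 and 9.88 at 24 h, 8.52, 6.15 and 9.74 at 36 h, and 7.81, 2.58 and 4.92 at 72 h. The Ctr libraries ran from 0.171 to 5.25 CPM with a median of 2.37. SE and Ctr libraries were apart up to 36 h and overlapped at 72 h, where Ctr 72 h replicate 2 held 1 count. The log2FC of Cebpb in order of time was 2.54 ± 0.34 (adjusted p = 8.23e-06), 2.36 ± 0.45 (0.00041), 2.03 ± 0.34 (9.57e-05), 1.71 ± 0.44 (0.00563) and 1.52 ± 0.55 (0.0431). The call at 72 h ended without Ctr 72 h replicate 2 (0.41, adjusted p = 0.564), without SE 72 h replicate 1 or 3, without the factor for unwanted variation (0.94, adjusted p = 0.279), with limma-voom (1.25, adjusted p = 0.258) with the ganglion marker covariate (1.05, adjusted p = 0.224) and with the compared groups alone (1.67, adjusted p = 0.114). With the range of label numbers the calls at 24 h (1.16, adjusted p = 0.189), 36 h (1.49, 0.053) and 72 h (0.36, 0.834) ended. Exons of Peds1 on the opposite strand cover 312 of the 1504 exonic bases of Cebpb. The counter's default sets aside reads that fall on both of a pair of annotated genes, so the Cebpb counts may leave out reads from that stretch.

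**Figure D2:**
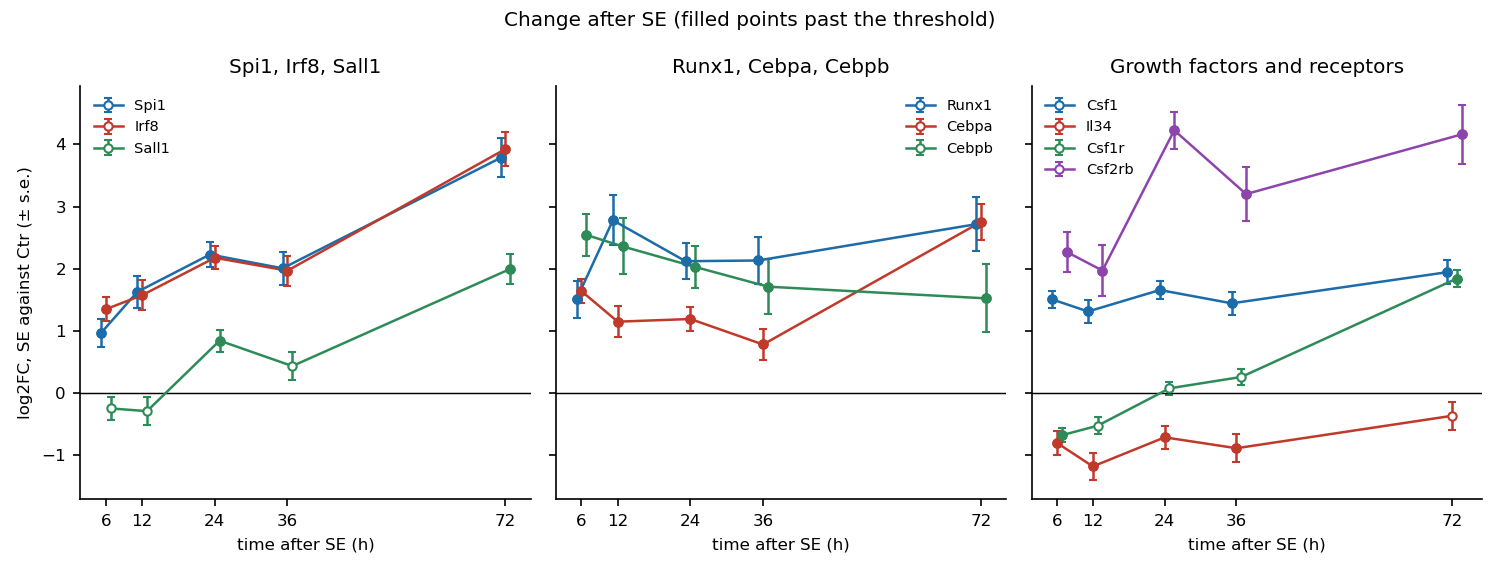
Log2FC of SE against Ctr (y axis, ± s.e.) by hours after SE (x axis) for the transcription factors, the ligands and the receptors Csf1r and Csf2rb, with filled points where a gene was called. Spi1 and Irf8 run together up to 3.78 and 3.93 at 72 h, Csf2rb peaks at 4.23 at 24 h, and Il34 stays below 0 with its 72 h point open.

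The CSF1 receptor ligands moved in opposite directions. Csf1 (chr3:107648364-107667806, minus strand) measured 60.6, 84.5 and 92.5 CPM at 6 h, 50.3, 50.9 and 88.3 at 12 h, 100, 72.1 and 91.9 at 24 h, 94.0, 80.9 and 70.0 at 36 h, and 108, 115.6 and 108 at 72 h. The Ctr libraries ran from 23.5 to 31.9 CPM with a median of 29.2, and no SE library reached down to them. The log2FC of Csf1 in order of time was 1.51 ± 0.14 (adjusted p = 1.07e-07), 1.31 ± 0.19 (2.25e-05), 1.66 ± 0.14 (1.32e-08), 1.44 ± 0.19 (7.03e-06) and 1.94 ± 0.20 (3.52e-07). The SE groups from 6 to 36 h overlapped, and the 72 h group stood above them.

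Il34 (chr8:111423928-111532584, minus strand) measured 32.6, 20.3 and 24.8 CPM at 6 h, 18.9, 28.4 and 14.7 at 12 h, 25.2, 29.4 and 28.0 at 24 h, 24.1, 25.1 and 26.6 at 36 h, and 24.9, 33.4 and 38.3 at 72 h. Its Ctr libraries ran from 34.0 to 54.2 CPM with a median of 48.2. Up to 36 h the SE libraries were below their Ctr libraries, and at 72 h the groups overlapped. The log2FC of Il34 in order of time was -0.80 ± 0.19 (adjusted p = 0.00243), -1.18 ± 0.22 (0.000383), -0.71 ± 0.19 (0.0051) and -0.89 ± 0.22 (0.00454) up to 36 h, and -0.37 ± 0.23 (0.245) at 72 h, where Il34 was not called. The call at 6 h passed below the log2FC threshold without SE 6 h replicate 2 (-0.658), and that at 24 h without SE 24 h replicate 1 or Ctr 72 h replicate 2 (up to -0.654).

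Per kb of exon, the ratio of Csf1 to Il34 was 0.412 ± 0.0888 in Ctr (SD, n = 9), from 0.290 to 0.557, and 2.18 ± 0.702 in SE (n = 15), from 1.16 to 3.90. The SE group means lay between 2.10 at 24 h and 2.30 at 72 h. The log2 ratio was 2.36 higher in SE over all times (1.05 against -1.31, permutation test over libraries, two-sided, p = 2e-05, which is the lowest value that 100000 draws allow). This ratio restates the calls of both genes and adds no independent evidence. Neuron markers summed to 10030 to 16540 CPM in Ctr and 6843 to 11140 CPM in SE, and as a percent of that sum Il34 was 0.371 ± 0.0746 in Ctr (n = 9) and 0.266 ± 0.104 at 6 h (n = 3). It was 0.262 ± 0.0664 at 12 h against 0.383 ± 0.123 in Ctr 12 h, 0.342 ± 0.0202 at 36 h against 0.352 ± 0.0407 in Ctr 36 h, and 0.431 ± 0.0790 at 72 h against 0.378 ± 0.0678 in Ctr 72 h. The ranges overlapped at each of these times, and the SE mean was the lower at 12 and 36 h and the higher at 72 h. Astrocyte markers summed to 3536 to 4879 CPM in Ctr and 5132 to 13320 CPM in SE, and as a percent of that sum Csf1 ran from 0.529 to 0.815 in Ctr and from 0.751 to 1.79 in SE. It was 0.920 ± 0.169 at 12 h against 0.562 ± 0.0430 in Ctr 12 h, 1.07 ± 0.204 at 36 h against 0.690 ± 0.0676 in Ctr 36 h, and 0.882 ± 0.0426 at 72 h against 0.726 ± 0.0862 in Ctr 72 h. The SE libraries lay above those of Ctr of the same time in this measure, without overlap. Csf1 was also set against the summed markers of microglia and macrophages. As a percent of that sum it was 15.3 ± 2.30 at 12 h against 7.24 ± 0.745 in Ctr 12 h, without overlap. At 36 h it was 8.925 ± 1.35 against 7.91 ± 0.448 in Ctr 36 h, with overlap. At 72 h it was 4.98 ± 0.889 against 7.36 ± 1.17 in Ctr 72 h, lower and without overlap. The part of these marker levels in the changes of Il34 and Csf1 was not tested.

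**Figure D3:**
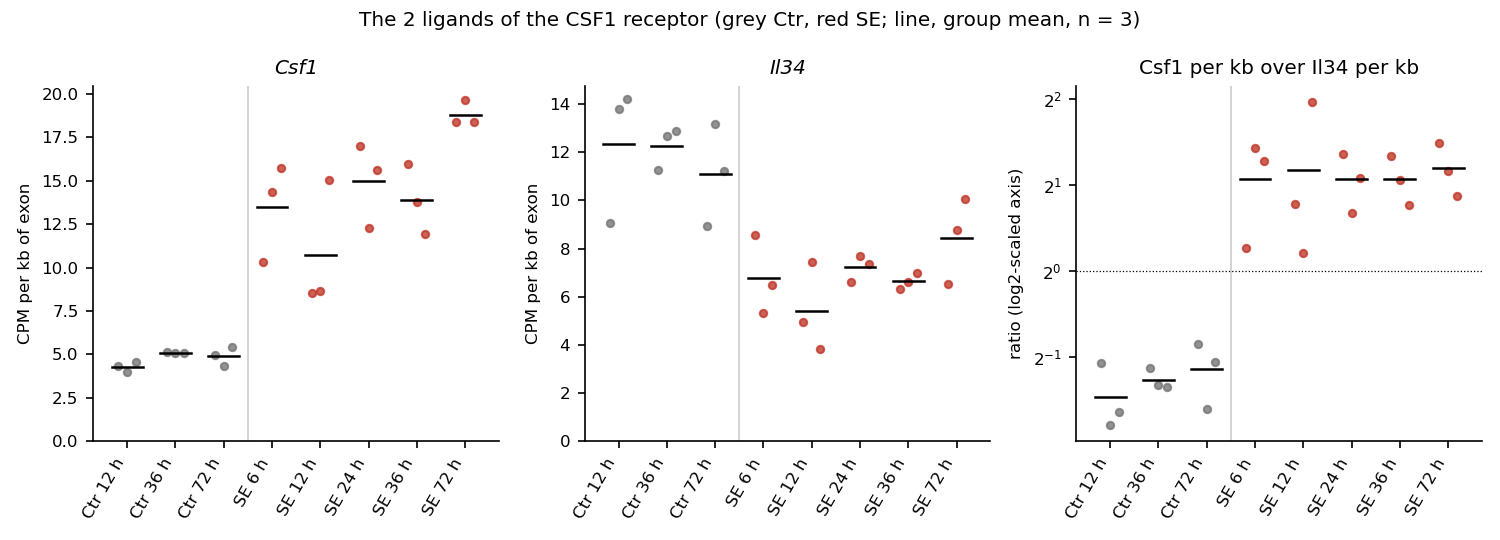
Csf1 and Il34 in CPM per kb of exon and their ratio on a log2-scaled axis, by group, with each library as a point (Ctr grey, SE red) and a line at the group mean (for the ratio, the arithmetic mean of the ratios, n = 3). Ratios of the 9 Ctr libraries stay between 0.290 and 0.557 and those of the 15 SE libraries between 1.16 and 3.90.

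The receptor of both ligands, Csf1r, fell early and rose late. In order of time its level was 76.4 ± 4.36, 80.9 ± 12.3, 128.9 ± 13.1, 158.6 ± 8.51 and 423.6 ± 83.2 CPM (SD, n = 3), against Ctr group means of 116.4 to 132.6. The log2FC of Csf1r in the same order was -0.68 ± 0.12 (adjusted p = 0.000117, called lower), -0.53 ± 0.14 (0.00442, under the log2FC threshold), 0.08 ± 0.11 (0.611), 0.26 ± 0.13 (0.153) and 1.84 ± 0.14 (9.61e-09). The 6 h value lay just past the threshold and passed below it with DESeq2 (-0.656) and without SE 6 h replicate 1 or Ctr 12 h replicate 2 (up to -0.638). Exons of Hmgxb3 on the opposite strand cover 19.8% of the exonic bases of Csf1r.

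Csf2rb had the largest log2FC of the 9 genes at 24, 36 and 72 h. The gene (chr15:78209952-78238047, plus strand) measured 3.92, 6.07 and 6.12 CPM at 6 h, 3.83, 4.18 and 6.69 at 12 h, 20.2, 13.3 and 29.3 at 24 h, 9.86, 7.88 and 10.1 at 36 h, and 17.2, 18.3 and 23.8 at 72 h. The Ctr libraries ran from 0 to 1.66 CPM with a median of 1.19, the 0 being Ctr 72 h replicate 3, the shallowest library, and no SE library overlapped them. The 24 h and 72 h groups overlapped in level, and the 36 h group lay below both without overlap. The log2FC of Csf2rb in order of time was 2.27 ± 0.32 (adjusted p = 1.68e-05), 1.97 ± 0.42 (0.000981), 4.23 ± 0.30 (9.26e-10, 18.7-fold), 3.20 ± 0.43 (1.07e-05) and 4.16 ± 0.48 (1.89e-06, 17.9-fold).

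Csf2rb2, next to Csf2rb, encodes a close copy of the chain that serves IL-3 in mice. The annotated transcripts of Csf2rb share 4.63% of their 100-base words with those of Csf2rb2, and 6.82% of the words of Csf2rb2 are shared in turn, so a small part of the counts could be split between them. Csf2rb2 measured 4.71, 5.29 and 6.12 CPM at 6 h, 5.27, 4.87 and 12.2 at 12 h, 11.3, 8.14 and 15.1 at 24 h, 12.4, 9.14 and 9.46 at 36 h, and 13.96, 12.8 and 19.6 at 72 h, against 0 to 3.25 CPM in the Ctr libraries. It was called higher at all 5 times. Its libraries at 24 h overlapped those at 12, 36 and 72 h, whereas those of Csf2rb at 24 h overlapped only those at 72 h.

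Between consecutive SE time points few of the 9 genes moved past a log2FC of 1. None was called by edgeR, DESeq2 or voom from 6 to 12 h, where 1.34% of all genes were called in either direction by edgeR and 1 member, Spi1, had an unadjusted p under 0.05. From 12 to 24 h Csf2rb rose by 2.11 ± 0.38 on the log2 scale (adjusted p = 0.00226), the only member among the 3.18% of genes called. None was called by edgeR or voom from 24 to 36 h (0.529% of all genes), and DESeq2 called 1. Csf2rb, the only member there with an unadjusted p under 0.05, measured -1.17 ± 0.36 (adjusted p = 0.122). From 36 to 72 h, where 4.13% of genes were called, Irf8 rose by 1.19 ± 0.22 (adjusted p = 0.0021), and Spi1 (0.93 ± 0.24, 0.0192) and Sall1 (0.93 ± 0.22, 0.0113) stayed under the log2FC threshold. At an adjusted p alone, Spi1 from 6 to 12 h (0.90 ± 0.25, 0.0471) and Sall1 from 12 to 24 h (0.95 ± 0.22, 0.013) passed as well. Csf1r rose by 1.42 ± 0.14 from 36 to 72 h (adjusted p = 4.59e-06).

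The SE effect itself was tested for a difference between the 3 time points with their own Ctr. Between 12 and 36 h no member was called to differ by edgeR, DESeq2 or voom, 3.38% of all genes were by edgeR, and 1 member, Sall1, had an unadjusted p under 0.05. Between 12 and 72 h, where 18.6% of all genes differed and the median of all genes was 0.15, the effect was larger at 72 h for 5 members. The differences in log2FC were 2.16 ± 0.41 for Spi1 (adjusted p = 0.00121), 2.35 ± 0.37 for Irf8 (0.000259), 1.61 ± 0.38 for Cebpa (0.00518), 2.29 ± 0.33 for Sall1 (0.000119) and 2.19 ± 0.64 for Csf2rb (0.0188). The Csf2rb difference was no longer called without Ctr 12 h replicate 3 (1.80, adjusted p = 0.082), with limma-voom (2.44, 0.0897) or with the compared groups alone (2.12, 0.0506). With the range of label numbers those of Spi1 (1.43, 0.137) and Cebpa (1.27, 0.217) were lost, and without the factor for unwanted variation that of Cebpa (1.39, 0.0563). The effects on Csf1 (0.63, adjusted p = 0.0932), Il34 (0.81, 0.0705), Runx1 (-0.06, 0.958) and Cebpb (-0.84, 0.454) were not shown to differ between these times.

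Between 36 and 72 h, where 4.81% of all genes differed and the median of all genes was 0.13, the effect was larger at 72 h for Spi1 (1.78 ± 0.41, adjusted p = 0.0166), Irf8 (1.96 ± 0.37, 0.0053), Cebpa (1.97 ± 0.37, 0.00575) and Sall1 (1.56 ± 0.32, 0.00978). No member was called there with the range of label numbers as a factor, and without the factor for unwanted variation 1 was. Those fits also called fewer of all genes, 136 and 386 in that order, against 874 in the fit used above. Of these 4 calls, 3 were lost without Ctr 72 h replicate 2. Then only Sall1 was called (1.49, adjusted p = 0.0326), and Spi1 (1.29, 0.104), Irf8 (1.30, 0.0759) and Cebpa (1.36, 0.0829) were not. Without that library the differences between 12 and 72 h were called for Spi1 (1.67), Irf8 (1.69), Sall1 (2.21), Csf2rb (2.24) and Il34 (0.97), and in the other direction for Cebpb (-1.97, adjusted p = 0.0275), and Cebpa was lost (0.98, adjusted p = 0.108).

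Of 10 markers of microglia and macrophages 9 were in the table, and their summed level ran from 333.7 to 426.4 CPM over the Ctr libraries. Over the SE libraries it ran from 301 to 366.7 CPM at 6 h, then from 338.5 to 496.1, from 624.7 to 850.9, from 857.5 to 946.6 and, at 72 h, from 1834 to 2627. At 6 h, when Spi1, Irf8, Runx1, Cebpa, Cebpb, Csf1 and Csf2rb were called higher, none of these 9 markers was called higher and 3 were called lower. Of all genes tested 15.8% were called higher at 6 h and 6.21% lower. At 12, 24, 36 and 72 h, 2, 6, 8 and 9 of the 9 markers were called higher and none lower. The shares of all genes called higher at these times were 13.9%, 14.9%, 12.7% and 15.2%. Among the markers the complement subunit C1qb measured 0.57 ± 0.14 at 6 h and 2.80 ± 0.19 at 72 h, and the fractalkine receptor Cx3cr1 -0.98 ± 0.16 and 2.01 ± 0.19.

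As a percent of that marker sum, Spi1 was 2.29 ± 0.0979 at 12 h against 0.862 ± 0.308 in Ctr 12 h, and 1.06 ± 0.184 at 72 h against 0.497 ± 0.254 in Ctr 72 h (SD, n = 3 each). Irf8 was 3.43 ± 0.142 at 12 h against 1.31 ± 0.176 in Ctr 12 h, and 1.87 ± 0.216 at 72 h against 0.756 ± 0.465 in Ctr 72 h. Spi1 and Irf8 thus lay above their Ctr on this measure at both times, with no overlap. Cebpa was 9.02 ± 3.25 at 6 h against 2.90 ± 1.16 in all 9 Ctr libraries, and 1.68 ± 0.183 at 72 h against 1.69 ± 1.05 in Ctr 72 h. Csf2rb was 2.79 ± 0.945 at 24 h against 0.272 ± 0.145 in the 9 Ctr libraries, and 0.877 ± 0.0814 at 72 h against 0.214 ± 0.186 in Ctr 72 h. At 72 h the Cebpa libraries lay within the range of Ctr 72 h, and those of Csf2rb above it. Sall1 was 6.05 ± 0.597 at 12 h against 8.47 ± 0.792 in Ctr 12 h and 4.50 ± 0.435 at 36 h against 7.99 ± 0.698 in Ctr 36 h, both without overlap, and 3.39 ± 0.656 at 72 h against 4.73 ± 1.22 in Ctr 72 h, with overlap. Relative to these markers, Spi1, Irf8 and Cebpa were thus highest at 6 or 12 h, whereas their CPM was highest at 72 h. The marker sum itself changed after SE. Its members C1qa, C1qb and C1qc measured 422, 388 and 359 CPM at SE 72 h, against 41.5, 55.9 and 41.1 CPM in Ctr 72 h. These ratios are descriptions with no test, and the part of the marker levels in the change of each gene was not tested.

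**Figure D4:**
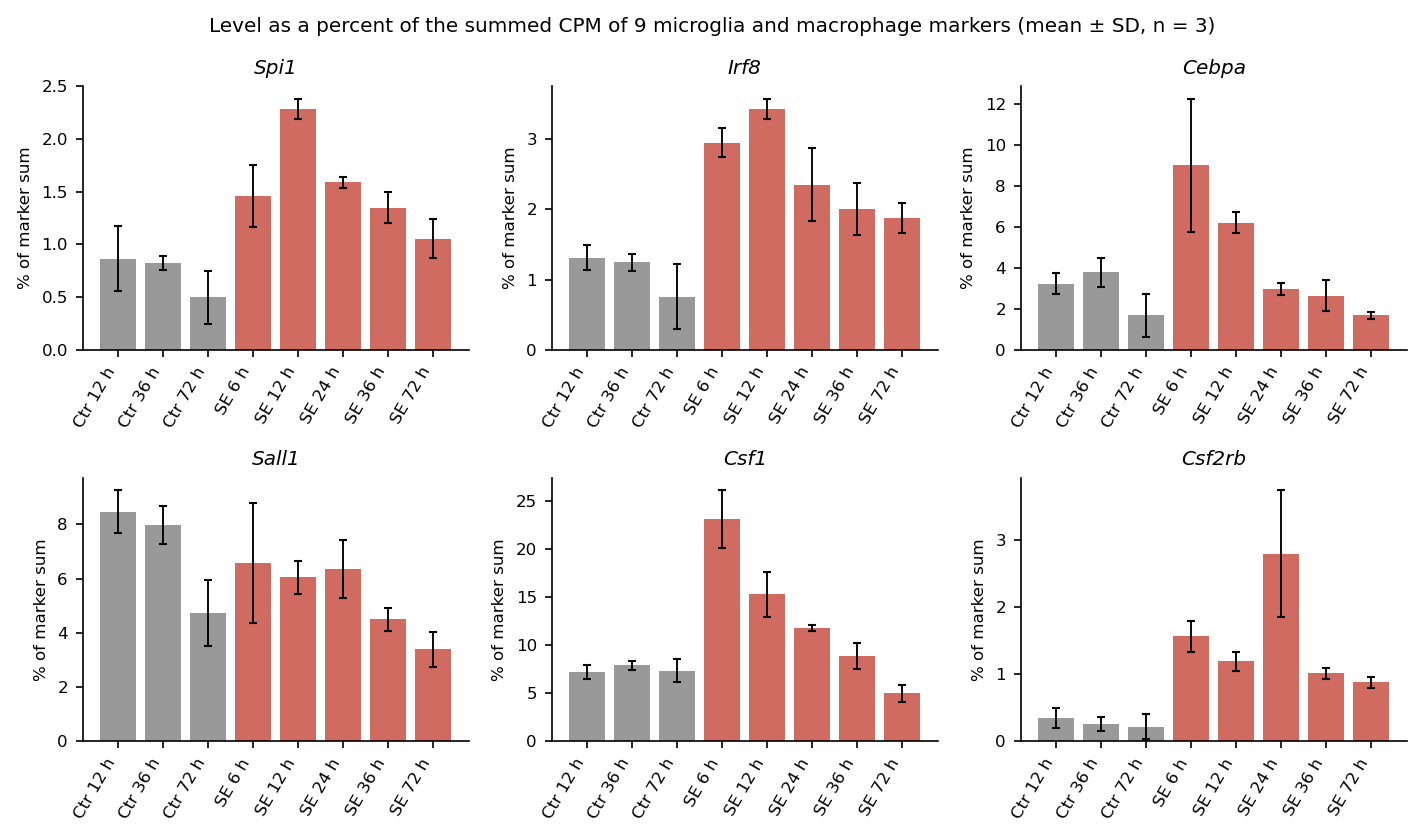
Spi1, Irf8, Cebpa, Sall1, Csf1 and Csf2rb as a percent of the summed CPM of 9 microglia and macrophage markers, by group (bars, mean of 3 libraries, and error bars, SD, on axes that start at 0). Spi1 and Irf8 peak at 12 h (2.29% and 3.43%), Cebpa and Csf1 at 6 h (9.02% and 23.1%) and Csf2rb at 24 h (2.79%).

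Of 9 markers of infiltrating leukocytes 5 were in the table. They summed to 0.189 to 18.1 CPM in Ctr (to 4.87 without Ctr 72 h replicate 2), 0.709 to 10.5 CPM in SE up to 36 h and 54.0, 16.7 and 3.17 CPM in the SE libraries at 72 h. The highest sums, in SE 72 h replicates 1 and 2 and Ctr 72 h replicate 2, came from libraries that were also high in sensory ganglion markers. Ccr2, the receptor of inflammatory monocytes, had no count in 6 libraries, S100a8 and S100a9 in 6 each and Chil3 in 9. Of the 5, 2, 1, 0, 1 and 2 were called higher in order of time and none lower, where 12.7% to 15.8% of all genes were called higher. At 72 h Ccr2 measured 3.21 ± 3.35 CPM against 1.39 ± 2.34 in Ctr 72 h, Chil3 11.7 ± 16.1 against 0.58 ± 0.705 and S100a8 2.52 ± 2.41 against 2.57 ± 2.74, each with an SD near or above its mean. The part of these cells in the values of the 9 genes was not tested.

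Other genes of the same pathways were taken from lists of textbook members. Of the list of CSF and common beta chain signalling, 10 of 15 genes were in the table and tested. In order of time 2, 1, 2, 3 and 5 of them were called higher and 3, 3, 3, 1 and 0 lower. Of all genes tested 15.8%, 13.9%, 14.9%, 12.7% and 15.2% were called higher and 6.21%, 11.4%, 9.21%, 8.91% and 4.20% lower. The counts of this list called higher up to 24 h thus lay near the share of all genes. Csf3r, the G-CSF receptor, was lower at 6 h (-2.12 ± 0.22, adjusted p = 2.98e-07), 12 h (-1.94 ± 0.23) and 24 h (-1.103 ± 0.196) and higher at 72 h (2.19 ± 0.23, adjusted p = 5.91e-07). Kit, the stem cell factor receptor, was lower from 6 to 36 h (-0.79 to -1.02), and Flt3 was lower at 12 h (-1.12) and 24 h (-1.07). Csf2 and Il3, which encode ligands of the CSF2RB chain, and Il5 and Il5ra were not analysed here.

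Of 39 other myeloid transcription factors 34 were tested, of which 8, 12, 12, 13 and 16 were called higher in order of time and 3, 1, 0, 3 and 0 lower, with median log2FC from 0.41 at 6 h to 0.86 at 72 h. Over these times 12.7% to 15.8% of all genes were called higher and 4.20% to 11.4% lower. Cebpd, which encodes C/EBP delta, was higher at all times (2.53 ± 0.21 at 6 h, 3.23 ± 0.20 at 24 h, 2.69 ± 0.31 at 72 h). Ikzf1 was lower at 6 h (-0.91 ± 0.18) and higher at 72 h (2.74 ± 0.21). Zeb2 was lower at 6 h (-0.86 ± 0.26), 12 h (-0.79 ± 0.30) and 36 h (-0.81 ± 0.30), and Klf2 was higher at 12 h (0.94) and lower at 36 h (-1.04). Of the other Sall genes, Sall3 followed a course like that of Sall1 in sign, with a fall at 6 h (-1.12 ± 0.17, adjusted p = 2.82e-05) and a rise at 72 h (1.103 ± 0.194, adjusted p = 0.000268), and Sall2 was lower at 6 h (-0.67 ± 0.15) and 12 h (-0.69 ± 0.18). Sall4 was not called at any time.

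Known PU.1 targets, all 18 of which were tested, were called higher in 6, 8, 13, 15 and 17 cases in order of time and lower in 4, 1, 1, 0 and 0, with median log2FC of 0.39, 0.64, 1.28, 1.79 and 2.79. The shares of all genes were 12.7% to 15.8% called higher and 4.20% to 11.4% lower. Cd68, a lysosomal protein of phagocytes, was higher at 6 h (2.62 ± 0.21) and at 72 h (5.32 ± 0.35), and Cybb, the NADPH oxidase subunit, went from 1.53 ± 0.31 to 4.45 ± 0.44. Cd14, the lipopolysaccharide co-receptor, measured 104 ± 34.6 CPM at 6 h, 146 ± 102 CPM at 24 h and 10.7 ± 1.83 CPM at 72 h, against Ctr means of 0.979 to 2.26 CPM. Aif1 was lower at 6 h (-1.13 ± 0.30, adjusted p = 0.00586) and higher at 36 h (0.93 ± 0.33, 0.0361) and 72 h (2.31 ± 0.35, 4.57e-05). Several of these targets are also microglial markers, so the lists are not independent.

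The 7 homeostatic microglia genes, which mark the state that SALL1 keeps, were called lower in 7, 6, 4, 3 and 0 cases in order of time and higher in 0, 0, 1, 1 and 5. Among all genes tested 4.20% to 11.4% were called lower and 12.7% to 15.8% higher over these times. P2ry12, the ADP receptor of resting microglia, had a log2FC in order of time of -3.55 ± 0.24 (adjusted p = 1.25e-09), -3.69 ± 0.25, -2.75 ± 0.22, -2.12 ± 0.23 and 0.69 ± 0.22 (adjusted p = 0.0261). P2ry13 ran from -1.83 ± 0.23 at 6 h to 1.59 ± 0.25 at 72 h and Olfml3 from -0.69 ± 0.20 to 3.07 ± 0.25. Siglech and Slc2a5 were lower from 6 to 36 h, with their lowest values at 36 h (-3.16) and 24 h (-4.40), and were not called at 72 h (0.44 and 0.68). Sall1 itself was not called lower at any time.

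The C/EBP target list had 8 of 10 genes tested, and 8, 8, 8, 6 and 6 of them were called higher in order of time and none lower. Over these times 12.7% to 15.8% of all genes were called higher. Several genes of the list were near 0 in Ctr and passed the filter on low counts only through their SE libraries. The share of the list called higher was thus set in part by that filter. Levels of these genes are given in place of folds. Saa3, an acute phase protein, measured 4.20 ± 0.918 CPM at 12 h and 4.06 ± 1.55 CPM at 72 h and at most 0.024 CPM in the Ctr group means. Tnf, the cytokine, measured 2.08 ± 1.48 CPM at 6 h and 1.04 ± 0.373 CPM at 72 h and at most 0.0129 CPM in the Ctr means. C3, the central complement component, measured 1.33 ± 0.316 CPM at 6 h and 20.2 ± 11.2 CPM at 72 h against 0.255 to 0.332 CPM in Ctr.

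**Figure D5:**
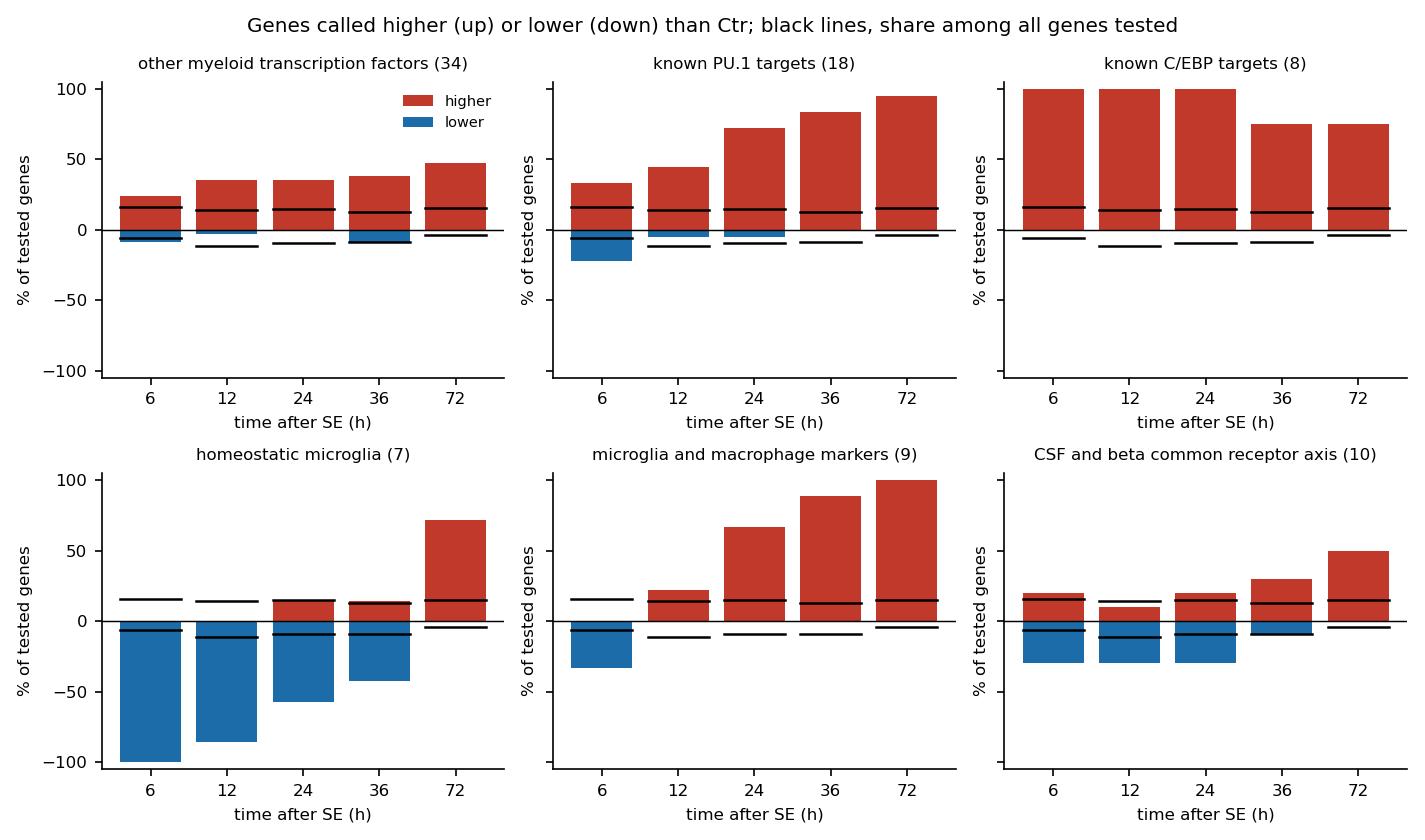
Percent of the tested genes of 6 lists called higher (red, up) or lower (blue, down) than Ctr at each time after SE, with black lines at the share among all genes tested and the number of genes tested in brackets. Homeostatic microglia genes are called lower in 7 of 7 cases at 6 h and higher in 5 of 7 at 72 h. C/EBP targets, several of which passed the filter only through SE libraries, are called higher in 8 of 8 cases up to 24 h.

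The genes whose pattern was closest to each member were found by the root mean square difference in centred log2 CPM over all 24 libraries. The nearest gene to Spi1 was Irf8 (0.32, where the median over all genes was 1.30), followed by Cyba (0.36), which encodes an NADPH oxidase subunit, and Vav1 (0.40). Irf8 had Vav1 (0.27), Spi1 (0.32) and Casp8 (0.35) as neighbours. Sall1 was nearest to F11r (0.29), the receptor tyrosine kinase gene Axl (0.29) and Rab3il1 (0.32). Csf1 was nearest to Slc11a1 (0.27), Cnn3 (0.28) and Ppp1r18 (0.28), and Il34 to Gm44509 (0.22), Crebl2 (0.23) and Rnf167 (0.24). Runx1 had Arpc1b (0.46), Cd9 (0.48) and Lcp1 (0.55), and Cebpa had Ccnf (0.38), Cyp20a1 (0.46) and Tram2 (0.49). The neighbours of Cebpb (Gm45774 at 0.54, Spmip6 at 0.57, Tmem88 at 0.59) and of Csf2rb (Hk3 at 0.64, C3ar1 at 0.74, Tlr1 at 0.74) were farther away. The libraries share depth and treatment over all these genes, and the measure is a description.

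The meaning of the 3 ranges of label numbers is not stated in the labels. Within a range, SE and Ctr libraries could be compared at 6 h (2 against 5), 12 h (1 against 1) and 36 h (2 against 3), and each of the 9 genes had the same direction there as in its pooled log2FC. At 6 h the within-range difference in mean log2 CPM was 0.65 for Spi1, 1.13 for Irf8, 1.37 for Csf1 and -0.80 for Il34. At 36 h it was 1.83 for Spi1, 1.94 for Irf8, 1.54 for Csf1, -0.92 for Il34 and 3.09 for Csf2rb. At 24 and 72 h no range held both SE and Ctr libraries of the comparison, so range and group cannot be told apart there.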

How the data were processed

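The authors trimmed paired-end reads of unstranded polyA libraries with Trim Galore 0.6.6, aligned them with STAR 2.7.8a to GRCm39 and counted reads per gene with HTSeq 0.13.5 without regard to strand. They deposited raw counts, whole numbers per gene and library. Of 18647 identifiers, 18552 were matched to symbols and positions in GENCODE M39 and 95 were not.

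In R 4.3.3, counts were scaled by TMM and filtered with filterByExpr over 8 groups, and edgeR 4.0.16 fitted 24 libraries with group terms plus 1 factor of unwanted variation (RUVr) (quasi-likelihood test, Benjamini-Hochberg adjustment over 18153 genes). Thresholds followed the study. The code was tested on simulated counts. Alternatives were no RUVr factor, DESeq2 1.42.0, limma 3.58.1 (voom), other scalings, filters and thresholds, the compared groups alone, the range of label numbers, a replicate block and each library left out. A sensory ganglion score (log2 of the summed CPM of its markers plus 1) as covariate was added after the data were seen.

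The 9 genes and all lists were chosen with earlier results of these data known. Named besides the 9 were Csf1r, Csf2rb2, the 3 genes of a list called at the most times, up to 2 called lower, and the 3 nearest genes to each member. A gene that this rule names is not reported here.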

Additional observations from a re-analysis of the deposited data

Results flagged for a closer look

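The effect of SE differed between time points by a test of the difference itself for 13 gene and time combinations. Between 12 and 72 h the log2FC was higher at 72 h by 2.16 for Spi1, 2.35 for Irf8, 1.61 for Cebpa, 2.29 for Sall1, 2.19 for Csf2rb, 2.37 for Csf1r (adjusted p = 3.84e-07) and 3.92 for Csf2rb2 (adjusted p = 0.00646), from edgeR's quasi-likelihood test. The Csf2rb call was lost without Ctr 12 h replicate 3 (1.80, adjusted p = 0.082). The Csf2rb2 value depends on Ctr 72 h libraries with at most 3 counts and is no bound. Between 36 and 72 h the log2FC was higher at 72 h by 1.78 for Spi1, 1.96 for Irf8, 1.97 for Cebpa, 1.56 for Sall1 and 1.58 for Csf1r (adjusted p = 0.000275). Without Ctr 72 h replicate 2 the calls of Spi1, Irf8 and Cebpa there were lost, as was that of Cebpa between 12 and 72 h. With the range of label numbers as a factor 0 members were called between 36 and 72 h and 3 between 12 and 72 h. Between 12 and 36 h the log2FC was higher at 36 h by 0.78 for Csf1r (adjusted p = 0.0279), a call lost in 8 of 13 fits that left out 1 library. All of these values are differences of fitted log2FC over 3 libraries a group.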

How the results depend on the processing

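Counts of called members kept within 1.5 times the values given, with no member reversed, under DESeq2 size factors, library size alone, no filter and the replicate block (8, 8, 9, 8 and 8 called against Ctr in order of time, then 0, 1, 0 and 1 between SE times and 0, 5 and 4 for differences). Replicate numbers did not pair the libraries: 19 of 84 same-numbered pairs correlated over 0.1 (mean -0.004, from -0.348 to 0.399, against 0.002 for other numbers). Requiring at least 10 counts in every library, which leaves 11913 genes, took 5 of the 9 members out of the test. Of the 4 left (Cebpa, Sall1, Csf1 and Il34), 3 were called at 6, 12, 36 and 72 h, 4 at 24 h, 0 from 12 to 24 h and from 36 to 72 h, and 2 for each difference with 72 h, the same numbers as among these 4 without that filter. The other log2FC threshold gave 1 member from 6 to 12 h, 2 from 12 to 24 h and 3 from 36 to 72 h. From 36 to 72 h DESeq2, voom and the compared groups alone gave 2 and the ganglion score 3. DESeq2 gave 1 from 24 to 36 h, and the compared groups alone gave 1 for the difference between 12 and 36 h. For the difference between 36 and 72 h, no RUVr factor gave 1, voom 2 and the range of label numbers 0, and the latter gave 3 between 12 and 72 h. In the same order 386, 461, 136 and 1626 of all genes were called. The fit used above called 874 between 36 and 72 h and 3384 between 12 and 72 h. Beyond the filter, the causes were not tested. The sign of Csf1r at 24 h reversed with the range of label numbers (-0.068, adjusted p = 0.805).

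Leaving out 1 library, members called ranged from 0 to 1 from 6 to 12 h (1 without SE 6 h replicate 2), 1 to 2 from 12 to 24 h (2 without replicate 3 of either group), 1 to 3 from 36 to 72 h (more than 1 without SE 36 h replicate 3, Ctr 72 h replicate 2 or SE 72 h replicate 1) and 1 to 4 for the difference between 36 and 72 h (1 without Ctr 72 h replicate 2). The other myeloid factors called at 12 h ranged from 7 (without SE 12 h replicate 3) to 14, the CSF list at 24 h from 3 (without SE 24 h replicate 3) to 6, and the leukocyte markers from 0 to 4, 0 to 2, 0 to 3, 0 to 1 and 0 to 3 in order of time.

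With at least 10 counts in every library, 7 of 10 genes of the CSF list were left, with 3, 3, 1 and 3 called at 6, 24, 36 and 72 h (4, 3, 1 and 3 of these 7 without the filter). Of the PU.1 targets 11 of 18 were left, with 5, 4, 7, 8 and 10 called (6, 3, 7, 8 and 10 without it), and of the C/EBP targets 1 of 8, with 1, 1, 1, 1 and 0 called, as without it. No leukocyte marker was left, which gives 0 at 6, 12, 36 and 72 h. With the range of label numbers, the other myeloid factors had 6, 8 and 6 at 6, 12 and 72 h, the C/EBP targets 5, 5 and 3 at 12, 24 and 72 h, the CSF list 3 at 24 h, the homeostatic genes 2 at 72 h and the leukocyte markers 0 at 6, 12, 36 and 72 h. The higher threshold gave 3 for the CSF list at 6 and 24 h and 5 for the other factors at 6 and 12 h. With the compared groups alone, the CSF list had 1 at 12 h, the C/EBP targets 5 at 24 h and the leukocyte markers 0 at 6, 12 and 36 h. Leukocyte markers were otherwise 0 at 6 and 36 h and 1 at 72 h without the RUVr factor, 2 at 12 and 36 h with DESeq2, 1, 0, 0 and 1 at 6, 12, 36 and 72 h with voom, 2 at 12 h with library size alone or the replicate block, and 0 at 6 h and 1 at 72 h with the ganglion score.

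Counts of Cebpb, Sall1 and Csf1r are uncertain where genes on the other strand overlap them, since reads were counted without strand. The 72 h comparisons rest on the shallowest Ctr libraries.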
